A study of Mus musculus with 4 samples.

Results

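The proteasome genes of mouse T-helper 17 (Th17) cells were described from ATAC-seq, an assay that marks open chromatin by where a transposase can cut. Members were the protein-coding genes of GENCODE M21 whose symbol starts with Psma, Psmb, Psmc, Psmd, Psme, Psmf or Psmg, which gave 50 of 21938 genes. The rule uses no measured value, and 1 symbol, Psmc3ip, belongs to a meiotic recombination factor that is not a proteasome subunit. The study has 1 group, Th17 primary cells of strain C57BL/6NJ in 4 biological replicates. By the labels the 4 replicates share a donor identifier, age is unknown, sex was not collected, and there is no treatment, genotype or second group, so the comparisons are between genes within these cells. Peak names carry a time of 72hrs, the words ASTARR.insert and a tag (KS134 for the first pair of replicates, KS136 for replicates 3 and 4), none of which the labels explain.

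The proteasome is the protease that degrades proteins tagged with ubiquitin. Its 20S core is a barrel of alpha rings, which gate the entrance, around beta rings, which hold the catalytic sites. The 19S regulatory particle caps the barrel, with ATPases that unfold the substrate and non-ATPase subunits that bind and remove ubiquitin. In lymphocytes and after interferon exposure, the catalytic subunits Psmb5, Psmb6 and Psmb7 can be replaced by Psmb8, Psmb9 and Psmb10, which forms the immunoproteasome and changes the peptides made for antigen presentation.

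Each replicate's deposited list held 83904 to 85293 open regions, each with a signal value, which is not normalised between replicates. Signal is therefore given as a percentile, the percent of the replicate's own regions with a lower signal. A promoter is called open when each of the 4 replicates has its own region within 1 kb of any annotated transcription start site (TSS) of the gene. The lists hold no read counts, so depth is unknown and precision is the spread between replicates. The cell type was checked on promoters of marker genes: all 8 Th17 markers, Il17a and Il17f among them, and all 6 T cell markers, Cd3e and Cd4 among them, were open, against 64.1% of all genes. Their percentiles ran from 18.0 in Il17a and 21.1 in Cd4 to 78.6 in Rora. Of 4 markers each, 1 B cell marker (Pax5, at 86.0), 1 myeloid marker (Cd14, at 62.7) and 1 CD8 or NK marker (Cd8b1, at 61.3) was open and Klrb1c had a promoter region in 3 replicates, while Lyz2, Csf1r and Cd8a had no promoter region in any replicate.

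Of the motif strings searched in these promoters, the one furthest above its background in percentage points was the ETS string, CCGGAAG on either strand. Such sites are bound by GABPA and other ETS factors and are shown here for the 19S subunits that held 1 in every replicate. They were read from GRCm38 at the match nearest to the median summit of the promoter region, 5′ to 3′ on the strand given, with the string in capitals.
Psmc1 (chr12:100110163-100110191, - strand): aatcgccaccgCCGGAAGtgcatccacca
Psmc2 (chr5:21785180-21785208, - strand): cgagccccatcCCGGAAGtgctcactggt
Psmc3 (chr2:91053951-91053979, - strand): ttgctgcacaaCCGGAAGaggcgggaggc
Psmc6 (chr14:45329713-45329741, + strand): aggcgggccagCCGGAAGgggcggagcca
Psmd2 (chr16:20651615-20651643, - strand): tgtcctccagaCCGGAAGcgccctgcgga
Psmd4 (chr3:95042722-95042750, - strand): ttacagctgttCCGGAAGctgctgcgaag
Psmd6 (chr14:14120973-14121001, - strand): cagagacgcgaCCGGAAGtcagactggcg
Psmd7 (chr8:107588438-107588466, - strand): cggcggtcaaaCCGGAAGgggaggtgctg
Psmd11 (chr11:80428593-80428621, - strand): gaaacacacacCCGGAAGacccgccctcg
Psmd12 (chr11:107479500-107479528, - strand): cgtcactcgcaCCGGAAGtcgcccgctca
Psmd13 (chr7:140882377-140882405, + strand): cgcccgcggtgCCGGAAGtgagcgagcac
Psmd14 (chr2:61711730-61711758, + strand): aagccgggaacCCGGAAGtacttctctgc

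The catalytic 20S genes Psmb5 and Psmb6 held an antioxidant response element (ARE) string, TGACNNNGC, at the upstream edge of the gene. This element is known as the site of NFE2L1 and NFE2L2, the factors that raise proteasome gene expression when proteasome activity falls. The stretches below end at the base before the annotated gene start, with string matches in capitals (TGACNNNGC in both, and the RUNX string TGTGGT in Psmb5).
Psmb5 (chr14:54618023-54618138, - strand): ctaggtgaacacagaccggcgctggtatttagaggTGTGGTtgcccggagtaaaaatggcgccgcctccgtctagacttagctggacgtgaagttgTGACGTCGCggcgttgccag
Psmb6 (chr11:70525252-70525366, + strand): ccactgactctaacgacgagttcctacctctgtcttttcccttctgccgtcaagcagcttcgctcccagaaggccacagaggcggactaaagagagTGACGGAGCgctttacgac

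Promoters of the proteasome genes were open more often than those of genes at large. Of the 50 members, 47 (94%) were open, against 64.1% of all 21938 protein-coding genes. Every gene of the 20S alpha ring other than the germ cell gene Psma8 was open, and so were all 17 of the 19S subunits, the 3 constitutive and the 3 immunoproteasome catalytic genes, and all 7 assembly chaperones. Most open members have a CpG-rich promoter, a feature that goes with openness in all genes. When genes were ordered into quintiles by the highest ratio of observed to expected CpG over their TSSs, 8.25%, 37.7%, 84.2%, 94.0% and 96.6% of all genes were open from the lowest quintile to the highest. The members had 0, 5, 19, 14 and 12 genes in these quintiles, of which 0, 3, 18, 14 and 12 were open.

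The 3 members without a promoter region in any replicate were Psma8, Psmb11 and Psme2b. Psma8 encodes the alpha subunit of the germ cell proteasome, and its best CpG ratio was 0.587. Psmb11, on chr14:54621433-54629556 (+ strand), encodes the catalytic subunit of the thymoproteasome of cortical thymic epithelium, and its best CpG ratio was 0.393. Psme2b, on chr11:48945354-48946190 (- strand), is a PA28 beta-like gene, with a ratio of 0.236. A low ratio was not always joined to a closed promoter: Psmd10, Psme1 and Psme2 had ratios of 0.425, 0.460 and 0.459 and were open in all 4 replicates. Psmb11 lies head to head with Psmb5 on the opposite strand, and the Psmb5 promoter region was the shared region nearest to its 5′ end (the map around Psmb5).

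For 4 open members the open site was not at the annotated 5′ end of the gene but at an internal TSS. The median summit lay 14569.5 bp downstream of the 5′ end in Psma6, an alpha ring subunit, and 58773 bp downstream in Psmd9, a 19S assembly chaperone. It lay 3890 bp downstream in Psmd5, another 19S chaperone, and 2918 bp downstream in Psmf1, the proteasome inhibitor PI31. With the gene 5′ end alone, 43 members were open, against 59.5% of all genes.

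Open proteasome promoters were also strong, in addition to being common. The median percentile of the 47 was 87.8, 88.2, 88.7 and 88.8 in replicates 1 to 4, or 88.4 ± 0.484 (SD, n = 4), while the median over all 14070 open promoters was 79.3 ± 0.491. The 4 member medians all lay above the 4 medians of all open promoters, the highest of which was 79.99. Signal was also higher at higher CpG in all genes. By CpG at the gene 5′ end, the median over open promoters was 67.7 in the lowest quintile, 83.0 in the fourth and 82.0 in the highest. The fourth and the highest quintile held 18 and 13 of the 50 members. Ranked by -log10 q, the median was 88.9 in the members and 85.9 in all open promoters. The deposited signal had a median of 12.9 ± 0.371 in the members and 10.8 ± 0.289 in all open promoters. Widths were similar, with medians of 1344 ± 60.7 bp and 1328.5 ± 38.3 bp. Among open promoters, 18 of the 47 members stood in the top quartile, 3 in the top decile (Psma2, Psma4 and Psmc4) and 13 below the median. By the same rule on mean ranks, the counts over all 14070 open promoters were 3486, 1320 and 7020. The member share was thus higher in the top quartile, but not in the top decile. Replicates gave nearly the same percentile for a gene, with an SD over replicates from 0.242 (Psma2) to 4.12 (Psmd13) and a median SD of 1.59, against 2.23 for all open promoters.

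**Figure D1:**
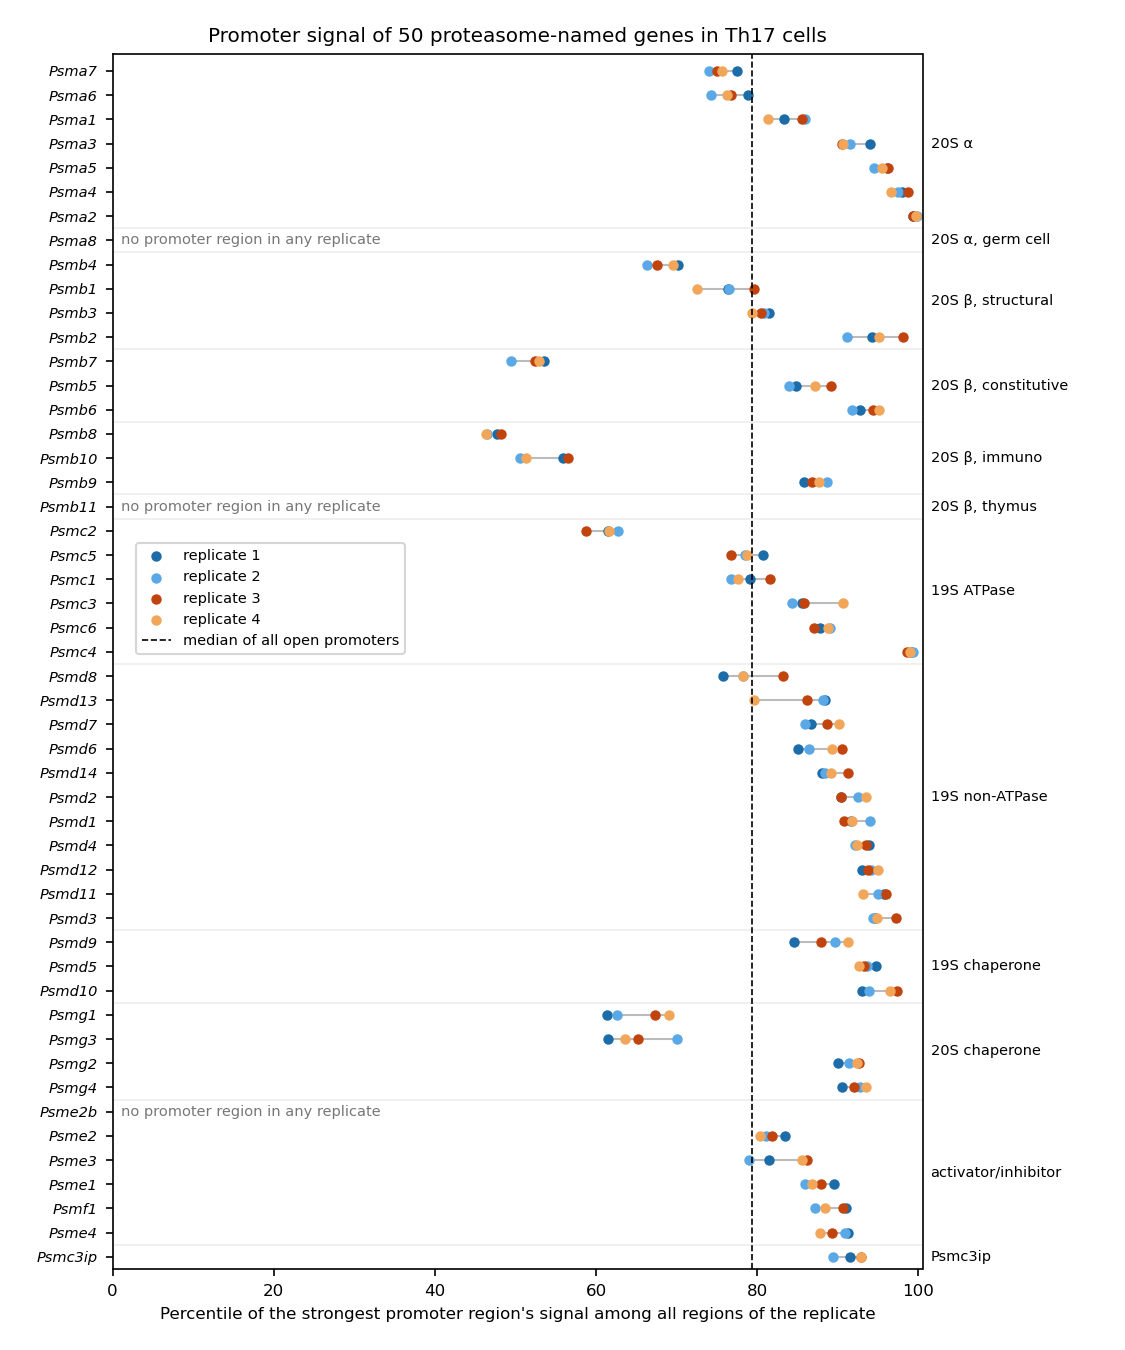
Signal percentile (x axis, 0 to 100) of the strongest promoter region of each member in each of 4 replicates (coloured points, joined by a grey line from lowest to highest), grouped by role, with the median of all open promoters (79.3) as a dashed line. Psmb8, Psmb7 and Psmb10 lie lowest, Psma2 and Psmc4 highest, and 3 genes have no promoter region.

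In the alpha ring, which forms the gate of the 20S core, the 7 open genes had a median percentile of 91.6 ± 1.59. Psma2 was highest, with signals of 18.31, 19.93, 17.13 and 18.21 in replicates 1 to 4 and a mean percentile of 99.6 ± 0.242, the highest of all members. Psma7 was lowest, with signals of 10.53, 10.09, 9.55 and 9.90 and a percentile of 75.5 ± 1.45. No replicate of Psma7 reached the level of any replicate of Psma2.

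In the beta rings the structural subunits Psmb1 to Psmb4 had a median percentile of 78.4 ± 1.72, from 68.4 ± 1.77 in Psmb4 to 94.6 ± 2.84 in Psmb2. The value of Psmb1, 76.2 ± 2.90, came from a region at an internal TSS, while its region at the 5′ end stood at 59.8 ± 2.18. The 3 constitutive catalytic genes spread widely. Psmb6, which encodes the caspase-like site, had signals of 14.49, 14.53, 14.23 and 14.75 and a percentile of 93.5 ± 1.5. Psmb5, the chymotrypsin-like site, had signals of 12.19, 12.31, 12.66 and 12.42 and a percentile of 86.3 ± 2.40. Psmb7, the trypsin-like site, had signals of 6.64, 6.28, 6.15 and 6.48 and a percentile of 52.0 ± 1.83. The 3 genes did not overlap in any replicate, although their products occur in equal number in the constitutive core.

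The immunoproteasome catalytic genes were all open but, with the exception of Psmb9, not strong. Psmb8 had signals of 5.95, 5.91, 5.71 and 5.73 and a percentile of 47.2 ± 0.940, the lowest of the 47. Psmb10 had signals of 6.96, 6.42, 6.65 and 6.26 and a percentile of 53.6 ± 3.09. Psmb9 had signals of 12.46, 13.56, 12.05 and 12.54 and a percentile of 87.2 ± 1.23. Psmb9 shares its region with Tap1, the peptide transporter gene that starts on the opposite strand, so this value belongs to both promoters. Psmb8 and Tap2, the partner of Tap1 (50.03), lie beside them in the MHC on chromosome 17.

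Each immunoproteasome gene was set against the constitutive gene whose product it replaces, within each replicate. Psmb8 was 39.1 ± 2.09 percentile points lower than Psmb5 (SD, n = 4; -37.1, -37.5, -40.9 and -40.9 in replicates 1 to 4), with an exact two-sided sign-flip p of 0.13. Psmb9 was lower than Psmb6 in 4 of 4 replicates, by -6.93, -3.14, -7.58 and -7.42 points, with a mean of -6.27 ± 2.11 and an exact p of 0.13. Psmb10 and Psmb7 differed by 1.54 ± 2.41 points, with Psmb10 higher in 3 of 4 replicates and an exact p of 0.375. With 4 replicates 0.13 is the smallest p this test can give, so none of the 3 pairs could pass 0.05, and the p-values measure only the spread between these replicates of 1 donor identifier. The sizes depended on the measure: ranked by -log10 q instead of signal, the differences were -5.48 ± 1.15 for Psmb8, 9.73 ± 1.09 for Psmb9, which turned its direction, and 7.92 ± 2.5 for Psmb10.

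In width the pairs shared a direction. The Psmb8 region was 2322, 2275, 2248 and 2256 bp wide in replicates 1 to 4, and that of Psmb5 was 1113, 1167, 1205 and 1120 bp. The immunoproteasome region was wider in 4 of 4 replicates in every pair, by 1124 ± 68.8 bp for Psmb8, 703 ± 59.6 bp for Psmb9 and 913 ± 29.2 bp for Psmb10 (exact p = 0.13 each, width having been added after the percentiles were seen). The Psmb9 region also covers the start of Tap1, so its width belongs to both promoters. The region of Psmb7 was narrow, at 959 ± 55.2 bp against 1872 ± 68.6 bp in Psmb10, and about as low in percentile as that of Psmb10.

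**Figure D2:**
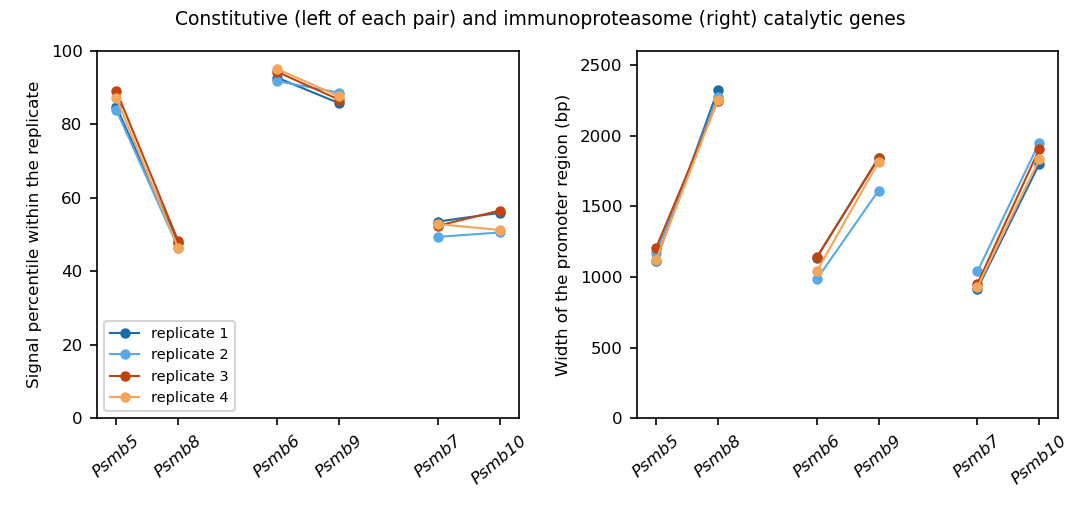
Signal percentile (left, 0 to 100) and width in bp (right) of the promoter region of the 3 constitutive catalytic genes and the immunoproteasome gene that replaces each, with 1 line per replicate. Psmb8 lies below Psmb5 by 39.1 points on average, while all 3 immunoproteasome regions are wider, by 703 to 1124 bp on average. The Psmb9 region is shared with Tap1.

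The 19S ATPases, which form the unfolding ring, had a median percentile of 83.0 ± 1.09. Psmc4 was highest, with signals of 17.87, 18.61, 16.30 and 16.91 and a percentile of 99.0 ± 0.306. Psmc2 was lowest, with signals of 7.72, 8.08, 6.94 and 7.64 and a percentile of 61.1 ± 1.69. The 6 ATPases form 1 ring with a single copy of each, and the replicates of these 2 genes did not overlap.

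The 11 non-ATPase subunits of the 19S particle had a median percentile of 91.3 ± 0.846, from 78.9 ± 3.12 in Psmd8 to 95.3 ± 1.31 in Psmd3, both subunits of the lid. Psmd14, the deubiquitinase that removes ubiquitin chains from substrates, stood at 89.2 ± 1.46. The 19S assembly chaperones, which assist formation of the ATPase ring, had a median of 93.1 ± 0.412, from 88.3 ± 2.83 in Psmd9 to 95.2 ± 2.10 in Psmd10, which encodes gankyrin.

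Chaperones of 20S assembly fell into a high and a low pair. Psmg2 and Psmg4 stood at 91.6 ± 1.18 and 92.2 ± 1.27, and Psmg1 and Psmg3 at 65.1 ± 3.72 and 65.1 ± 3.63. The pairs do not follow the heterodimers that the products form, Psmg1 with Psmg2 and Psmg3 with Psmg4. Among activators and the inhibitor, the 5 open genes had a median of 87.5 ± 1.57, from 81.6 ± 1.33 in Psme2 to 89.8 ± 1.55 in Psme4, the gene of PA200. Psme1 and Psme2, whose products form the interferon-inducible PA28 ring, stood at 87.5 ± 1.57 and 81.6 ± 1.33. Psmc3ip, which the symbol rule brought in, stood at 91.7 ± 1.64, inside the range of the subunits.

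Genes that act beside the proteasome gave a reference. All 42 genes of 5 lists were open, against 64.1% of all genes. The 9 factors bound to the proteasome outside the Psm names had a median percentile of 91.3, from 79.0 in Pomp, the core maturation factor, to 96.7 in Txnl1. The 10 ubiquitin shuttles and p97 unfoldase genes had a median of 84.3, and the 9 genes of the NFE2L1 pathway 72.9, with Nfe2l1 itself at 88.4. The 8 interferon-linked antigen processing genes had a median of 68.1, from 50.03 in Tap2 to 87.2 in Tap1. The 6 ubiquitin and E1 genes had a median of 61.5.

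Summits sat close to the TSS. In 79.8% ± 2.75 of open members (SD, n = 4) the summit of the strongest promoter region lay within 100 bp of the nearest TSS, against 55.7% ± 0.168 of all open promoters. The summits of the 4 replicates lay within 20 bp of each other in 27 of 47 members (57.4%), against 37.7% of all open promoters. In Psma2 all 4 summits lay at the same base, -63 bp from the TSS. In Psmb10 they lay at 204, -62, -162 and 205 bp, on both sides of the TSS in a region 1872 ± 68.6 bp wide.

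A partner start on the opposite strand was common. In 12 of 50 members (24%) a protein-coding gene on the opposite strand had a TSS within 1 kb of the member's 5′ end, against 11.8% of all genes. These were Psma2 with Mrpl32, Psma4 with AY074887, Psma7 with Ss18l1, Psmb1 with Tbp, Psmb9 with Tap1, Psmc2 with Dnajc2, Psmc5 with Ftsj3, Psmd5 with Cutal, Psmd10 with Atg4a, Psmd13 with Sirt3, Psme2 with Rnf31 and Psmg2 with Cep76. Psma2 and Mrpl32, a mitochondrial ribosomal protein gene, start 75 bp apart, and Psmb1 and Tbp, the TATA-binding protein gene, 137 bp apart. A region that covers both starts, as at Psmb9 and Tap1, cannot be assigned to 1 of the 2 genes. In Psma4, Psmb9 and Psmd5 the partner's nearest start lies inside the member, so these pairs overlap and are not divergent. In Psmd5 the open site lies at an internal TSS and not at the 5′ end near the Cutal start. Psmb1 had a region at both places. Its strongest region had the summit 1398 bp downstream of the 5′ end, and the region at the start that faces Tbp was weaker, at 59.8 ± 2.18. The group held the strongest member (Psma2) and also the weakest ATPase (Psmc2). The share with such a partner also rose with CpG in all genes. It was 19.8% and 22.6% in the fourth and the highest quintile by CpG at the gene 5′ end, which held 18 and 13 of the members.

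Beyond promoters, the windows of gene body and 5 kb on each side held 128, 140, 140 and 139 regions in replicates 1 to 4. Merging gave 115 distinct regions shared by all 4 replicates, of which 50 overlapped a member's own TSS window, 17 the TSS window of another gene and 48 none. These 48 non-promoter regions lay in introns (22), exons (2), upstream (8) or downstream (16) of the members. At least 1 was found in 29 of 50 members (58%), against 52.4% of all genes, so the members were near the background. Their median percentile was 49.9, below the members' promoters and close to the 54.9 of all 52027 shared non-promoter regions, and 6 of the 48 exceeded 75.

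Psmb7 was the exception among the members. It held 7 shared non-promoter regions, followed by Psma3, Psma6, Psmd1 and Psme4 with 3 each. One region in its intron, chr2:38609941-38610900, with its summit 33738 bp downstream of the 5′ end, had signals of 16.89, 16.59, 15.85 and 15.15 and a percentile of 97.2 ± 0.925. The promoter of the same gene stood at 52.0, so the intronic region was higher by 45.2 ± 1.80 points and in 4 of 4 replicates (the map around Psmb7). An AP-1 string, TGANTCA on either strand, was found 36 bp from its summit. AP-1 strings, the sites of JUN, FOS and BATF proteins, are common in such regions: they were found in 17 of the 48 non-promoter regions (35.4%), against 39.2% of all shared non-promoter regions. The match is printed because it lies in the strongest intronic region of the group.
Psmb7 intron (chr2:38610371-38610399): gtggtttttgaTGACTCAgatttagcttt

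Of 27 open members with a non-promoter region, the strongest such region stood above the promoter on average in Psmb7, Psmb10 and Psme4. In Psmb10 a region downstream, chr8:105930396-105931414, was higher by 15.3 ± 2.07 points in 4 of 4 replicates. In Psme4 an intronic region, chr11:30786466-30787222, stood at 93.3 ± 2.51 and was higher in 3 of 4 replicates, by 3.48 ± 3.73 points. In the other 24 the promoter was higher on average, by up to 84.6 points in Psmc4. Psmd14 and Psmb2 also held intronic regions above percentile 75, at 83.3 ± 2.34 and 81.4 ± 2.87. Whether any of these regions acts on the member that holds it was not tested. The closed gene Psma8 held 1 shared intronic region, at 45.0 ± 6.29.

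**Figure D3:**
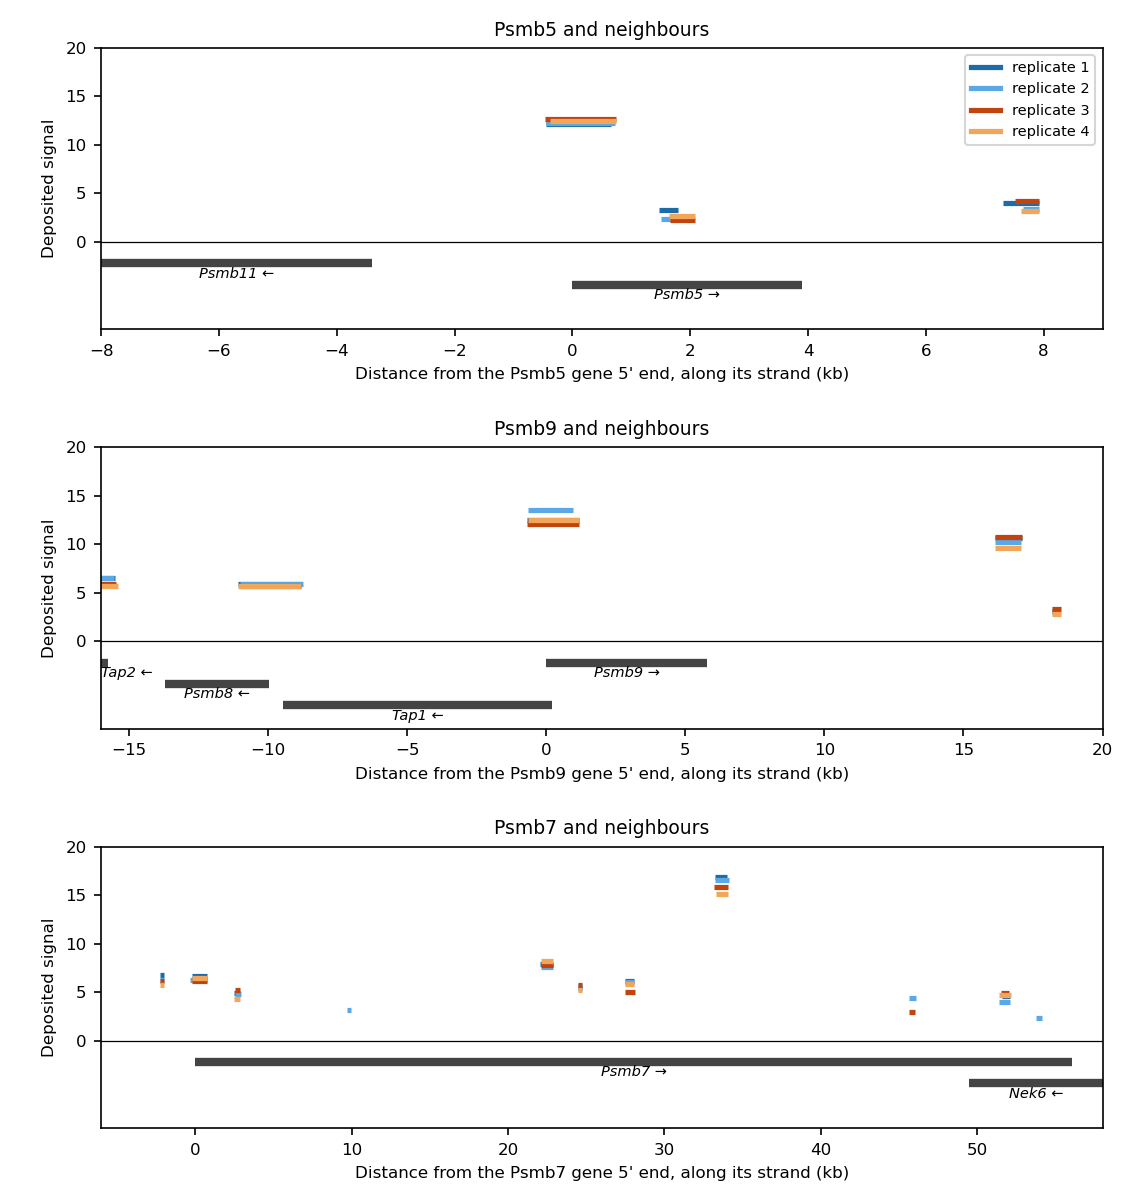
Open regions of the 4 replicates (coloured bars; y axis, deposited signal, not normalised between replicates) around Psmb5, Psmb9 and Psmb7, by distance from the gene 5′ end in kb, with protein-coding genes as grey bars and arrows for the strand relative to the named gene. No region lies at the Psmb11 start, Psmb9 and Tap1 share 1 region, and the Psmb7 intron holds a region with signals of 15.15 to 16.89.

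Of 14 motif strings searched on both strands within 150 bp of the promoter summit, the ETS string stood furthest above the background in percentage points. As a ratio to its background, the IRF/ISRE string stood higher, at 10.1% against 2.56%. The ETS string was found in 21 of 47 open members in every replicate (44.7% ± 0), against 16.6% ± 0.126 of all promoters with a region in the replicate. Genes and genome are the same in each replicate, so the SD of a member share reflects only where summits were called. It does not measure the uncertainty of a share over 47 genes. Within 50 bp of the summit the member share was higher by 19.3 percentage points, and in a fixed window from 250 bp before to 50 bp after the gene 5′ end by 16.5. Of the 20 members with a match near the median summit, 16 (80%) had it within 50 bp of that summit, against 54.0% of all matched open promoters. The string is rich in CpG, and its share in all open promoters rose from 6.5% in the lowest CpG quintile to 17.7% in the highest. In the 2 highest quintiles by CpG at the gene 5′ end, 8 of 18 and 7 of 13 open members held it, against 17.8% and 17.7% of all open promoters.

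The ETS matches were spread unevenly over the roles. In all 4 replicates, 12 of 17 open 19S subunits held the string, 4 of 6 ATPases and 8 of 11 non-ATPases, while 3 of 17 open 20S subunits did (Psma6, Psmb7 and Psmb10). It was found in 0 of 3 chaperones of 19S assembly, 2 of 4 of 20S assembly and 3 of 5 activators or inhibitors. In the fixed window the counts were 10 of 17 for the 19S and 0 of 17 for the 20S, and within 50 bp of the summit in every replicate 6 of 17 and 0 of 17. Within 50 bp of the summit in at least 1 replicate, the counts were 9 of 17 and 3 of 17, since the summits of Psma6, Psmb7 and Psmb10 moved between replicates. The fixed window does not reach the open TSS of Psma6. Roles were divided in this way after the values were seen, and the split was not tested. A match did not go with a stronger promoter in the members, whose median percentile was 86.6 with the string and 90.5 without, whereas over all open promoters the medians were 86.8 and 77.3. The 20S members that carry it are shown for comparison with the 19S sites above, without Psmb10, whose summits in the 4 replicates lie too far apart for a common window.
Psma6 (chr12:55398812-55398840, + strand): ccgccggtgctCCGGAAGcagtagccata
Psmb7 (chr2:38643948-38643976, - strand): ctctcgcggcgCCGGAAGtgctaagttct

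**Figure D4:**
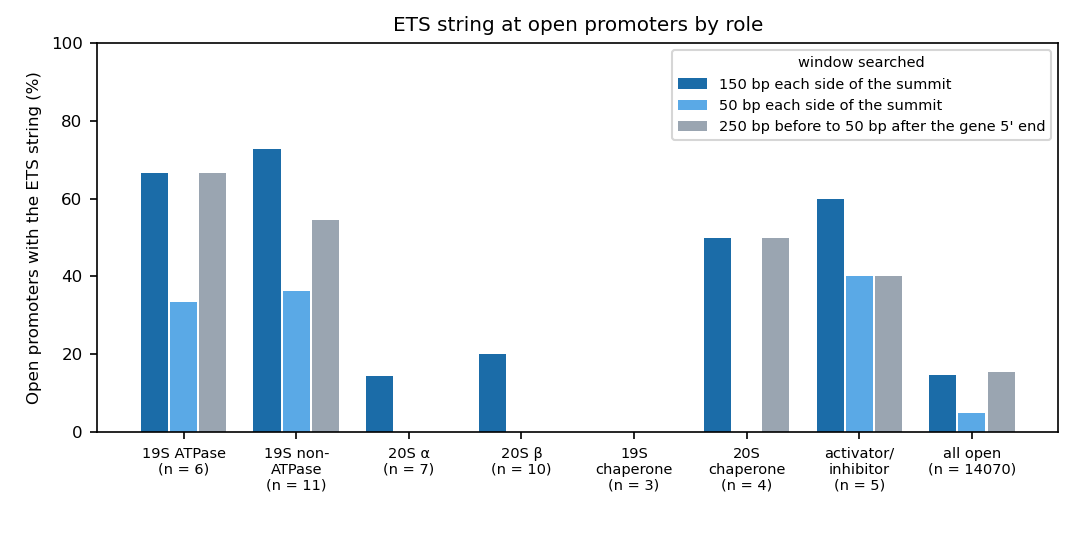
Percent of open promoters with the ETS string (y axis, 0 to 100) by role, in 3 windows (colours), counted when found in all 4 replicates for the summit windows. The 19S bars (12 of 17 genes around the summit) stand above those of the 20S rings (3 of 17), whose fixed-window and 50 bp bars are at 0.

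ARE strings were found in 10, 12, 12 and 12 of 47 open members in replicates 1 to 4 (24.5% ± 2.13), against 15.6% ± 0.12. In the fixed window at the gene 5′ end the order turned, with the members 1.30 percentage points lower (-1.30). The 10 members with a match in every replicate came from several roles: Psma3, Psmb2, Psmb5 and Psmb6 of the 20S, Psmc4, Psmc6 and Psmd1 of the 19S, the chaperones Psmd9 and Psmg2, and the activator Psme4. In 8 of the 10 the match lay within 100 bp of a TSS, against 55.9% of all matched open promoters. The site of Psmc6, at -187 bp from the nearest TSS, is not printed. Sites of the other 20S members and of Psmc4 and Psmd1 of the 19S are printed for comparison with the Psmb5 and Psmb6 elements above.
Psma3 (chr12:70974723-70974751, - strand): ctcatggtgcTGACCCGGCaggccgcgga
Psmb2 (chr4:126677619-126677647, + strand): gccgcgccagTGACTGGGCcgtcgcgcgt
Psmc4 (chr7:28050011-28050039, + strand): tcctccatagTGACCAAGCcggcctcagt
Psmd1 (chr1:86064661-86064689, + strand): tggaggggacTGACTGAGCagcgcacccg

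A YY1 string, AAGATGGC, was present in 6 of 47 open members in every replicate (12.8% ± 0), against 4.82% ± 0.041. All 6 matches lay on the strand of the gene and within 100 bp of a TSS, against 66.8% and 75.1% of all matched open promoters. In 5 of the 6, all but Psmd7, the ATG inside the string is an annotated start codon of the gene, against 35.7% of 560 matches in open promoters. In those 5 the string therefore covers the start of the coding sequence. Within 50 bp of the summit the members' share exceeded the background by 0.783 percentage points.
Psma2 (chr13:14613262-14613289, + strand): tttccgggtaAAGATGGCagagcgcggt
Psmb6 (chr11:70525384-70525411, + strand): gtagcagaggAAGATGGCggccgcctta
Psmb7 (chr2:38643888-38643915, - strand): ctttcttggcAAGATGGCggctgtgtcg
Psmc5 (chr11:106256178-106256205, + strand): cgagagagggAAGATGGCgcttgatggg
Psmd7 (chr8:107588519-107588546, - strand): tccctttctcAAGATGGCgcccctggcg
Psmd11 (chr11:80428652-80428679, + strand): tgagagcggtAAGATGGCggccgcagcg

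Interferon-type strings (IRF/ISRE, a pair of GAAA blocks with any 2 bases between them) were found in 10.1% ± 1.06 of open members, against 2.56% ± 0.055. The members with a match in all 4 replicates were Psmb3, Psmd4, Psmd7 and Psme1. Psme1 is an interferon-inducible gene, while the other three encode a structural beta subunit and 19S subunits. None of Psmb8, Psmb9 and Psmb10 had this string within 150 bp of the summit in any replicate, which says only that these letters are not in that window. The STAT GAS string, TTCNNNGAA, which was also searched, was found in 9.57% ± 1.23 of open members, against 6.08% ± 0.086. Psmb8, Psmc6, Psmd2 and Psmd3 held the STAT GAS string in all 4 replicates, and Psmb10 held it in some. In Psmd7 the printed stretch overlaps the YY1 stretch above, on the other strand.
Psmb3 (chr11:97703262-97703289, - strand): tggaaagcgGAAAGTGAAAagtcactgt
Psmd4 (chr3:95042676-95042703, + strand): ggcgccacaGAAATGGAAAggttggtta
Psmd7 (chr8:107588530-107588557, + strand): ccatcttgaGAAAGGGAAAgaaccgcct
Psme1 (chr14:55578494-55578521, - strand): gcgggaaggGAAAGCGAAAgcacagctc

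The other strings lay nearer to the background. The SP/KLF GC box GGGCGG was found in 66.5% ± 2.04 of members against 62.2% ± 0.145, and the nuclear respiratory factor NRF1 string in 13.8% ± 1.23 against 8.67% ± 0.192. The CCAAT string CCAATCA was found in 12.8% ± 0 against 10.3% ± 0.042, and RUNX (TGTGGT) in 13.3% ± 2.04 against 13.6% ± 0.050. Strings of AP-1, NF-kB and CTCF were less frequent in members than in all promoters, at 6.38% against 9.28%, 4.26% against 5.95% and 2.13% against 4.61%. With 47 promoters, 1 gene amounts to 2.13%, so the CCAAT, RUNX, AP-1, NF-kB and CTCF differences each rest on fewer than 2 genes.

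**Figure D5:**
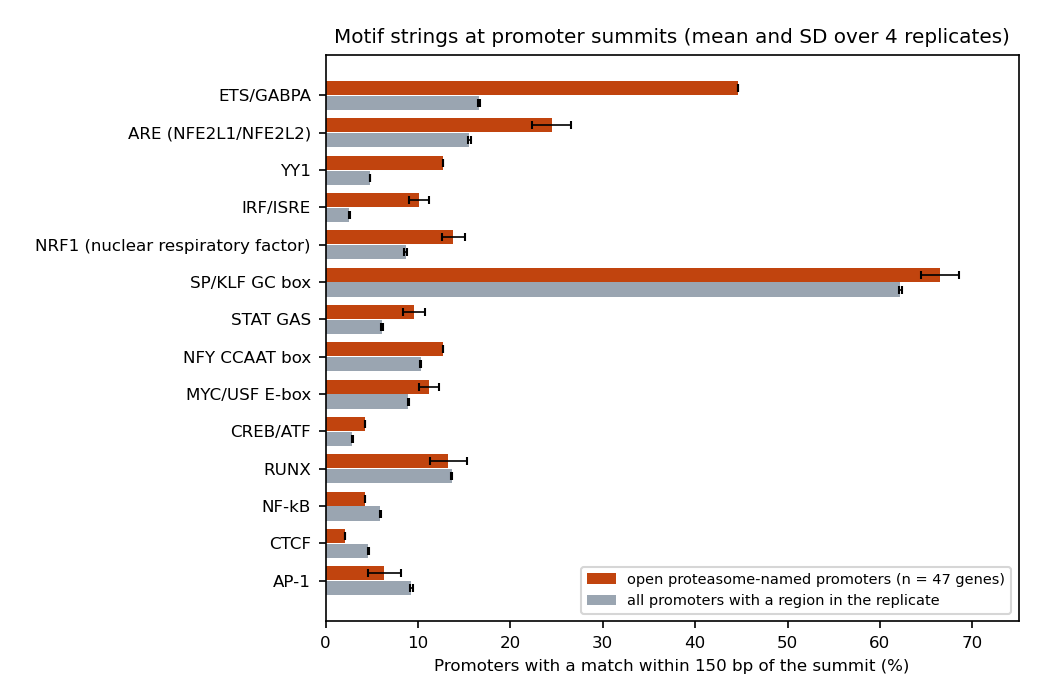
Percent of promoters with a string within 150 bp of the summit (x axis) in the 47 open members (red) and in all promoters with a region in the replicate (grey), as mean and SD over 4 replicates, ordered by the difference. The SD of the member shares reflects only where summits were called. ETS stands furthest apart in percentage points, at 44.7% against 16.6%.

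The tag in the peak names divides the replicates into pairs, and what it stands for is not explained. The difference in mean percentile between KS136 and KS134 had a median of 0.374 over the 47 members, from -5.43 to 6.25. The pairs did not overlap in 19 members (40.4%), against 40.1% of all open promoters, and with 2 against 2 the smallest exact p is 0.333.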

How the data were processed

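ATAC-seq of mouse Th17 primary cells was used as 4 peak lists, 1 per replicate, on mm10 per the labels. The authors made the lists; which aligner and caller they ran is not given in the sources used here. The files have no header, and columns were read in narrowPeak order: a deposited signal without normalisation across lists, deposited -log10 values of p and q, the summit offset, and a deposited display score that was not used. The lists stop at a -log10 q of about 1.00. Depth is unknown.

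Unplaced contigs were left out (chromosomes 1 to 19, X and Y remain). Promoter windows were 1 kb each side of every annotated TSS (GENCODE M21, GRCm38.p6), and gene windows the gene body with 5 kb each side. Overlap was at least 1 bp. The strongest region by signal represented a promoter. Strings were searched 150 bp each side of its summit, and CpG ratios 500 bp each side of a TSS. Pairs were tested by an exact two-sided sign-flip over 4 replicates. Alternatives covered windows, thresholds, ranking and leaving out replicates. Scripts were tested on simulated data.

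Named genes are the 6 catalytic genes, Psma8, Psmb11, every closed member, the highest and lowest of each role, the 5 members with most non-promoter regions and closed genes of the related lists; others named are examples chosen after their values were seen. Members, lists and strings were chosen with earlier results of these data known. Software was Python 3.11.15, numpy 2.4.6, pandas 2.3.3, scipy 1.17.1 and matplotlib 3.10.9. The table of promoter sequences was not used; sequences came from the genome.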

Additional observations from a re-analysis of the deposited data

Results flagged for a closer look

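Of 69 quantities with 4 replicate values, 6 had 1 replicate that stood apart by Dixon's criterion for 4 samples. Chance gives about 1 in 20 for continuous values, a rate that does not hold for counts with ties. Psmd3 had a promoter percentile of 97.2 in replicate 3, against 94.4 to 94.8 in the others. The Psmb9 minus Psmb6 difference was -3.14 in replicate 2, against -7.58 to -6.93. Replicate 1 had 128 regions in the gene windows, against 139 to 140. The ARE share of members was 21.3% in replicate 1 against 25.5% in the others, which is 10 against 12 genes. The IRF/ISRE share was 8.51% in replicate 4 against 10.6%, and the E-box share 12.8% in replicate 2 against 10.6%, each a difference of 1 gene. For the ARE, IRF/ISRE and E-box shares the other replicates were tied, so the criterion flags a difference of any size.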

How the results depend on the processing

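The number of open members stayed at 47 under 11 of 12 alternatives and was 43 with the gene 5′ end alone. The median percentile was 88.9 when ranked by -log10 q (all open promoters 85.9) and 78.9 when ranked among promoter regions (all 64.2), and 88.2 to 88.6 with 1 replicate left out. Ranked by -log10 q, the differences were 9.73 for Psmb9 minus Psmb6, -5.48 for Psmb8 minus Psmb5 and 7.92 for Psmb10 minus Psmb7. With 1 replicate left out, the differences were -39.7 to -38.5 for Psmb8, -7.31 to -5.83 for Psmb9 and 0.667 to 2.58 for Psmb10. Members with a non-promoter region numbered 16 in the gene body alone (39.9% of all genes) and 17 in the strongest 50000 regions (38.4%). Motif differences in percentage points changed sign within 50 bp of the summit for NFY (-0.469), SP/KLF (-4.39), CREB/ATF (-1.30) and RUNX (0.018), and from 250 bp before to 50 bp after the gene 5′ end for ARE (-1.30), NFY (-1.36), SP/KLF (-3.48), RUNX (6.11) and CTCF (1.11). RUNX was -0.897 without replicate 3 and 0.527 without replicate 4. The cause of these changes was not tested. No paired analysis was possible because the series has 1 group; the pairs above are genes compared within replicates. The lists hold no counts, so a closed promoter is one with no called region at this unknown depth.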

Other observations

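Of 4 annotated proteasome pseudogenes with a Psm symbol, Psmb7-ps2, a transcribed processed pseudogene on chromosome X, had a region within 1 kb of its TSS in 4 of 4 replicates. Psmb5-ps, Psmb6-ps and Psmb6-ps2 had none in any replicate. Reads from a processed pseudogene and its parent gene can be hard to place, and how the authors' alignment treated them is not given in the sources used here.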
